A study of Mus musculus with 1019 samples.

Results

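The nuclear-encoded genes of the mitochondrial respiratory chain were followed in single regulatory T cells (Tregs) from spleen and from visceral adipose tissue (VAT). Genes were taken by symbol: names beginning Nduf followed by a, b, c, s or v and a digit, the 4 Sdh genes, and names beginning Uqcr, Cox4 to Cox8 or Atp5. This rule found 84 of the 23725 genes in the count table: 37 of complex I, 4 of complex II, 8 of complex III, 18 of complex IV, 15 of complex V and 2 that are not subunits, Atp5s and Atp5sl. It used no measured value. All mice were male B6 animals aged 20 months, with no other allele or treatment named in the labels. Both tissues were sorted in the same way, as DAPI- TCRb+ CD4+ CD25+ cells, but single-cell suspensions came from mechanical dissociation of the spleen and from collagenase/dispase digestion of VAT. The 1019 cells came from 1 spleen library (36.8% of cells) and from 2 libraries of epididymal VAT, numbered 2 (32.4%) and 3 (30.8%) in the labels. For the cells called spleen here by their source name, another label field names the tissue as both spleen and VAT. Their titles carry the number 2, as those of VAT library 2 do, while a further field reads rep1b. No animal is named, so the VAT libraries may be technical repeats. No test between tissues was made, and each value below compares these 3 libraries only.

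The respiratory chain passes electrons from NADH (complex I) and succinate (complex II) through ubiquinone to complex III, cytochrome c and complex IV, where oxygen is reduced. Complexes I, III and IV pump protons across the inner mitochondrial membrane, and complex V, the ATP synthase, uses the resulting gradient to make ATP. Complexes I, III, IV and V combine subunits encoded in the nucleus, described here, with subunits encoded by mitochondrial DNA, which are not analysed here, whereas complex II is wholly encoded in the nucleus. Tregs are known to rely on oxidative phosphorylation more than many effector T cells do.

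The libraries were inDrops libraries, in which a unique molecular identifier (UMI) marks each captured mRNA near its 3′ end, so levels are given as counts scaled to the library total (CPM) and are not divided by transcript length. They held 548770 to 573622 UMIs, with medians of 1423 to 1611 UMIs per cell, and 3 cell barcodes occurred in more than 1 library. The Treg marker Foxp3 had 385.3 CPM in spleen, 472.9 in VAT library 2 and 344.4 in VAT library 3, and Il2ra, which encodes the CD25 of the sort, had 453.3, 1104 and 1011 CPM. The T cell genes of the marker list were lower in both VAT libraries: Cd3e had 228.4 CPM in spleen, 160.04 in library 2 and 109.3 in library 3, Cd3g had 346.9, 172.6 and 227.8, and Cd4 had 697.3, 672.5 and 424.6. None of the 8 Treg markers was at 0. Of 11 adipocyte markers, 7 were at 0 in every library, Adipoq, Plin1 and Cidec among them, and the list summed to 13, 10 and 11 UMIs. Erythroid markers took 0.0202% of UMIs in spleen and 1 UMI in each VAT library, and B cell markers summed to 87, 11 and 15 UMIs. Of 7 B cell markers, 2 were at 0 in every library, Cd79a among them. Myeloid markers summed to 7, 7 and 6 UMIs, CD8 and NK markers to 38, 40 and 38 with Cd8a at 0 throughout, and stromal and endothelial markers to 31, 1 and 4, of which Pecam1 gave 29, 1 and 2. A UMI of one of these non-Treg lists was in 47.2% of spleen cells, 14.8% of cells in VAT library 2 and 20.4% in VAT library 3. Ribosomal protein mRNA made up 30.1% of spleen UMIs, 17.7% in VAT library 2 and 19.7% in VAT library 3. The part of these differences in the results below was not tested, except where a value without the cells or genes in question is given.

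The promoters of 4 genes show the set at the level of sequence. Those of Ndufa4 and Ndufa9, which had the lowest VAT levels relative to spleen among members with 50 or more UMIs, are set beside those of Cox6a1 and Atp5h, which hold letters of the NRF1 motif. NRF1 is a transcription factor known for binding promoters of respiratory chain genes. The 4 genes were picked by level or by motif, so they cannot show whether the 2 go together, which was not tested. Atp5h was itself below spleen in both VAT libraries, at 0.785 (0.645 to 0.955) and 0.813 (0.669 to 0.987) times. Cox6a1 was above spleen in both, at 1.20 (0.981 to 1.47) and 1.30 (1.06 to 1.58) times. The sequences are from RefSeq (build GRCm38.p6) and run 5′ to 3′ on the strand of the gene, all 4 on the minus strand. Each covers up to 250 bases before the start of the gene without annotated exons, at chr6:11907498-11907700 for Ndufa4, chr6:126849145-126849394 for Ndufa9, chr5:115348982-115349129 for Cox6a1 and chr11:115419963-115420127 for Atp5h. Capitals mark matches to GCGCANGCG on either strand.
Ndufa4: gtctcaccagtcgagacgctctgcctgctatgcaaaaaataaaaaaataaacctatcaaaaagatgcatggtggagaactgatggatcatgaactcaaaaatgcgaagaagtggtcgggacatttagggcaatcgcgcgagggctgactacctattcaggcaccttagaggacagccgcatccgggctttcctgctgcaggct
Ndufa9: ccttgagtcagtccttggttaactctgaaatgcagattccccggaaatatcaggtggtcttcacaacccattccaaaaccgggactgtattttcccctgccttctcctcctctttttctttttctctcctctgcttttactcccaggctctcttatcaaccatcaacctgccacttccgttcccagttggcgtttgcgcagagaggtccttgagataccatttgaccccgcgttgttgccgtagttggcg
Cox6a1: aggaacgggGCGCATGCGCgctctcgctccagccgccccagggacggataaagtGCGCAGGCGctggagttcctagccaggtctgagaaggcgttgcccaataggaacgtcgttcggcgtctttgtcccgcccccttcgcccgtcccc
Atp5h: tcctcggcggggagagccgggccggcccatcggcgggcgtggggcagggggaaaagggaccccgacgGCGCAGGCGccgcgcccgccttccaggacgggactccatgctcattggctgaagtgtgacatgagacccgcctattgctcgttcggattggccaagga

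RefSeq promoter windows of 300 bases (250 before the start and 50 after) were found for 66 of the 84 members, 71 windows in all because some members have more than 1. The NRF1 letters GCGCANGCG, read on both strands, occurred in 21 of the 71 windows (29.6%), against 6.25% of all 32851 windows in the table. The letters CCGGAAG, the core bound by ETS factors such as GABPA, occurred in 16 (22.5%), against 8.86% of all windows. AAGATGGCG, bound by YY1, occurred in 7 (9.86%), against 1.40%. The TATA box letters TATAAA occurred in 8 windows (11.3%), against 13.6% of all. At least 1 of the NRF1, ETS and YY1 motifs was in 36 of the 71 windows (50.7%), against 14.8% of all windows. The member windows were also richer in G and C, with a median of 57.3% against 52.7%, and this was not matched in the comparison. The NRF1 letters were in 9 windows of complex I, 2 of complex II, 2 of complex III, 1 of complex IV and 7 of complex V. The window of Ndufa4 held none of these motifs, and that of Ndufa9 held the YY1 letters only, within the transcribed stretch that is not printed above. These matches are letters and not measured binding sites. The genes lie apart in the genome: 83 members matched the GENCODE M21 annotation (build mm10) on 19 chromosomes, 3 of them on X. Ndufa4 is at chr6:11900292-11907497 and Ndufa9 at chr6:126821721-126849136.

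Of the 84 members, 80 had at least 1 UMI and 70 had the 50 or more UMIs over the 3 libraries that were set as the minimum for a ratio. Members together took 1.46% of UMIs in spleen (8371 UMIs, 95% binomial interval 1.43% to 1.49%, Clopper-Pearson), 1.19% in VAT library 2 (6644 UMIs, 1.17% to 1.22%) and 1.29% in VAT library 3 (7073 UMIs, 1.26% to 1.32%). The share was thus lower in both VAT libraries, at 0.819 times the spleen share (0.793 to 0.846) in library 2 and 0.883 times (0.856 to 0.912) in library 3. Such intervals cover counting error only, and UMIs that come in clumps within cells make them too narrow. The median log2 ratio of the 70 members to spleen was -0.35 (library 2) and -0.25 (library 3), against 0.04 and -0.02 for all 4635 genes with 50 or more UMIs. Both VAT ratios share the spleen library as their denominator, so they are not independent of each other.

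The difference was spread over many members and was small for most of them. Below the spleen level in both VAT libraries were 39 of the 70 members (55.7%), against 40.5% of all 4635 genes, and above it in both were 13 (18.6%), against 41.3%. No member was 2-fold higher in both VAT libraries, a size that 10.3% of all genes reached, and 2 members (2.86%), Ndufa4 and Ndufa9, were 2-fold lower in both, against 4.4% of all genes. At 1.5-fold, 9 members (12.9%) were lower in both, against 12.8% of all genes, and no member was higher, against 17.9%. The share of members that were lower by 1.5-fold or 2-fold was thus near or below the background, whereas the share that were higher was below it. Of the 9, 7 were of complex I, among them Ndufa4, Ndufa5, Ndufa9 and Ndufa13, and the others were Cox7a2l of complex IV and Atp5o of complex V. Between the VAT libraries, 1 of the 70 members (1.43%), Ndufa4, differed by 2-fold or more, against 4.34% of the 4635 genes, and the median absolute log2 difference was 0.26 for members and 0.28 for all genes.

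**Figure D1:**
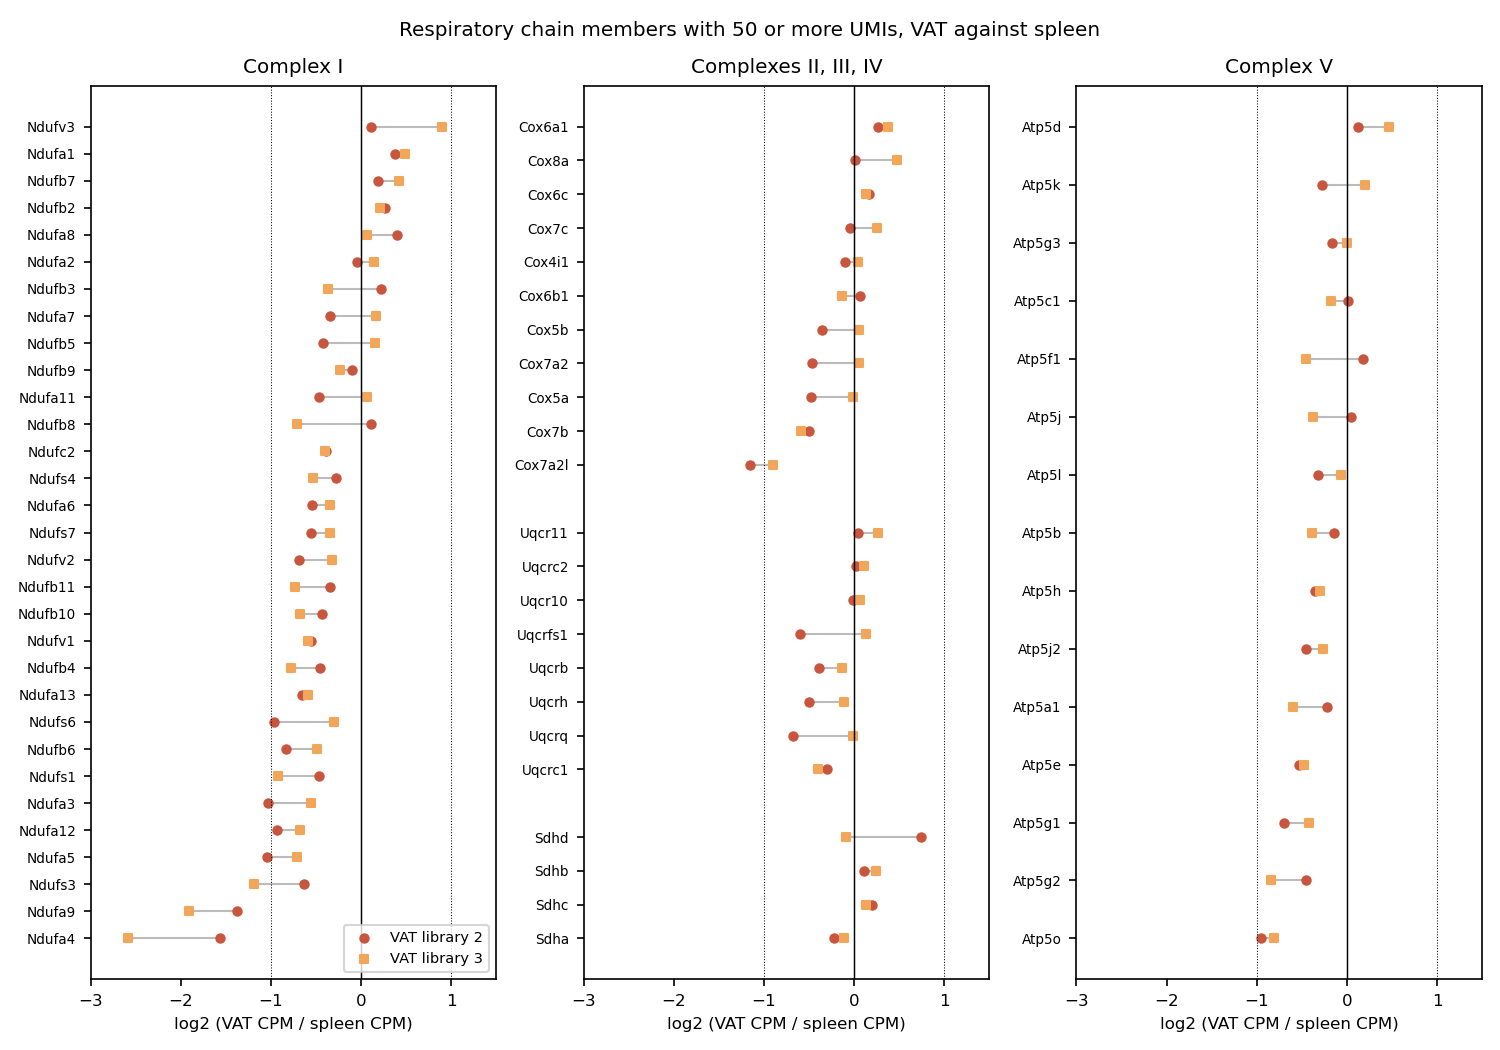
Each row is 1 member with 50 or more UMIs (69 of the 70 are drawn), and the horizontal axis is the log2 ratio of its CPM in VAT library 2 (circles) or VAT library 3 (squares) to its CPM in spleen, with 0.5 added to each count. The right and left dotted lines mark 2-fold. Ndufa4 and Ndufa9 are the 2 members with both points beyond the left dotted line, and no member drawn has both points beyond the right one.

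How the totals are counted moved these values. When library totals were counted without ribosomal protein genes, log2 ratios shifted by -0.24 in VAT library 2 and -0.20 in VAT library 3, and the median of all genes went to -0.19 and -0.22. The member medians became -0.58 and -0.45, and 57 members (81.4%) were then below spleen in both VAT libraries, against 52.8% of all genes on that scale. Above spleen in both were 3 members (4.29%), against 30.7% of all genes. The shift is the same for every gene, so the gap between the members' median and that of all genes is unchanged by construction. The summed share was as low when spleen and VAT cells with a UMI of a non-Treg marker were left out. Its mean log2 ratio over the 2 VAT libraries was -0.23 there, as with all cells. In cells with a Foxp3 UMI it was similar (-0.21). The members' median log2 ratio, as a mean of the 2 VAT libraries, was less negative in both subsets. It was -0.30 in all cells, -0.17 without cells holding a non-Treg marker and -0.21 in cells with a Foxp3 UMI. These medians cover 70, 64 and 53 members, because fewer members reached the minimum of UMIs in the subsets.

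Complex I, the NADH dehydrogenase that feeds the chain, was lower in both VAT libraries. Its 37 members summed to 2140 UMIs in spleen, 1548 in VAT library 2 and 1625 in VAT library 3, which is 0.746 times the spleen share (95% interval 0.698 to 0.797) and 0.794 times (0.744 to 0.847). Of the 32 with 50 or more UMIs, 21 (65.6%) were below spleen in both VAT libraries and 5 (15.6%) above. These shares were 40.5% and 41.3% over all genes with 50 or more UMIs. The median log2 ratios of the 32 were -0.46 and -0.44. The 7 core subunits, which carry the flavin and the iron-sulfur clusters and are conserved from bacteria (Ndufs1, Ndufs3, Ndufs8 and Ndufv1 among them), were all below the spleen level in both VAT libraries. They took 0.0565% of UMIs in spleen, 0.0363% in VAT library 2 and 0.0348% in VAT library 3, or 0.643 (0.537 to 0.769) and 0.616 (0.513 to 0.739) times the spleen share. The 30 other genes of complex I, mostly accessory subunits, stood at 0.765 (0.712 to 0.821) and 0.825 (0.770 to 0.885) times.

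Among the core subunits, Ndufs3, an iron-free core subunit of the matrix arm, had 59.3 CPM in spleen, 37.8 in VAT library 2 and 25.5 in VAT library 3. Ndufs1, which holds several of the iron-sulfur clusters, had 69.7, 50.4 and 36.4 CPM. Both genes were lower in both VAT libraries, yet the interval of the ratio included 1 in VAT library 2 for Ndufs1 (0.429 to 1.20) and Ndufs3 (0.351 to 1.13). Ndufv1, the flavin subunit that takes electrons from NADH, had 35, 23 and 22 UMIs, and its ratios of 0.678 (0.382 to 1.18) and 0.657 (0.367 to 1.15) were each within counting error of 1. Ndufs8 had 22, 10 and 7 UMIs. It was under the minimum of 50 and so is not among the 32 genes above, but the statement on the 7 core subunits used no minimum and includes it.

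Ndufa4 had the lowest VAT levels relative to spleen of all members with 50 or more UMIs. It had 59 UMIs in spleen (102.9 CPM), 19 in VAT library 2 (34.2 CPM) and 9 in VAT library 3 (16.4 CPM). The ratio to spleen in VAT library 2 was 0.332 (0.187 to 0.565) and in VAT library 3 it was 0.159 (0.0695 to 0.324). Its UMIs were spread over 54 cells in spleen, 18 in VAT library 2 and 9 in VAT library 3, with no more than 2 in 1 cell. The Ndufa4 protein was first described with complex I and is now placed with complex IV. Counted with complex IV, it moved the median log2 ratio of complex I, as a mean of the VAT libraries, from -0.45 to -0.43.

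Ndufa9, a subunit at the junction of the membrane and matrix arms, had 57.5 CPM in spleen, 21.6 in VAT library 2 and 14.6 in VAT library 3, from 33, 12 and 8 UMIs. The ratios were 0.375 (0.176 to 0.745) and 0.253 (0.101 to 0.560), so both intervals were below 1. With a minimum of 100 UMIs neither Ndufa4 nor Ndufa9 would enter, and no member would be 2-fold lower in both. With a minimum of 20 UMIs, Ndufs8 and Ndufa10 would join them. Among cells with a Foxp3 UMI (34.7% of spleen cells and 38.8% and 31.2% of VAT cells), Ndufa4 had 22, 5 and 2 UMIs and Ndufa9 had 6, 4 and 2. Among cells without a UMI of a non-Treg marker they had 24, 15 and 6 and 15, 11 and 7 UMIs. Both genes stayed lower in VAT there, but on too few UMIs for the minimum of 50.

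Other complex I members took different positions. Ndufa13, also known as GRIM19, had 244.1 CPM in spleen, 154.6 in VAT library 2 and 162.2 in VAT library 3, and was lower with ratios of 0.634 (0.479 to 0.835) and 0.665 (0.504 to 0.873). Ndufa5, an accessory subunit of the matrix arm, had 108.1, 52.1 and 65.6 CPM, also lower in both. Ndufa2, with the most UMIs of complex I, was at 284.2, 275.1 and 313.4 CPM, which overlap between the tissues. Ndufv3, an accessory subunit of the NADH-binding module, had the highest mean log2 ratio of complex I, with 74.96 CPM in spleen, 80.9 in VAT library 2 and 140.3 in VAT library 3. Its ratio of 1.08 (0.695 to 1.68) in VAT library 2 was within counting error of 1, and that of 1.87 (1.27 to 2.79) in VAT library 3 was above 1. In all cells, the Ndufv3 difference therefore rests on VAT library 3. Among cells with a Foxp3 UMI, Ndufv3 was 2-fold higher in both VAT libraries. Ndufa1, a small membrane subunit encoded on the X chromosome, had 92.4, 120.5 and 129.4 CPM, higher in both VAT libraries with intervals that included 1.

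**Figure D2:**
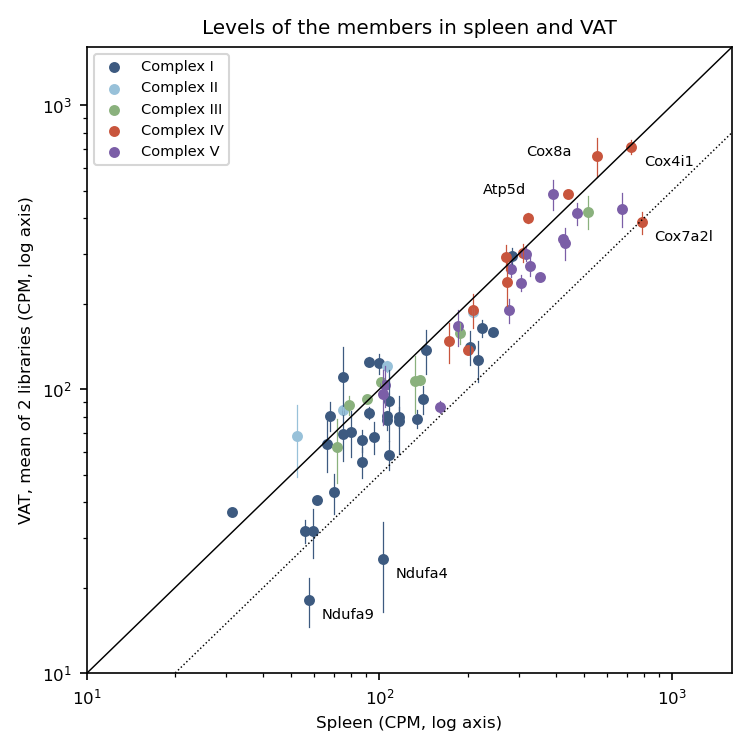
The horizontal axis is the CPM of each of the 70 members in spleen and the vertical axis its mean CPM in the 2 VAT libraries, both log axes, with a vertical line joining the 2 VAT libraries. The solid line marks equal levels and the dotted line a 2-fold lower level in VAT. Ndufa4, Ndufa9 and Cox7a2l lie on or under the dotted line.

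Complex II, the succinate dehydrogenase shared with the tricarboxylic acid (TCA) cycle, had nearly the same share in the 3 libraries. Its 4 genes took 0.0443% of UMIs in spleen, 0.0469% in VAT library 2 and 0.0450% in VAT library 3, or 1.06 (0.888 to 1.26) and 1.02 (0.850 to 1.22) times the spleen share. Sdha, the flavoprotein that oxidizes succinate, had 209.2 CPM in spleen, 179.8 in VAT library 2 and 193.2 in VAT library 3. Sdhb, the iron-sulfur subunit, had 106.3, 115.1 and 125.7 CPM. The ratio intervals of both included 1 in both VAT libraries. Of the membrane anchors, Sdhc had 74.96, 86.3 and 82 CPM. Sdhd had 52.3, 88.1 and 49.2 CPM, and was thus higher in VAT library 2 alone, at 1.68 times spleen (1.05 to 2.75). Without ribosomal protein genes in the totals, the median log2 ratio of complex II, as a mean of the VAT libraries, went from 0.09 to -0.13. Over all alternatives run it reached up to 0.495, in cells with a Foxp3 UMI. That value is the mean log2 ratio of Sdha there (-0.17 in all cells), so it describes Sdha and not the 4 genes together. In each VAT library the interval of the summed complex II ratio lay above that of complex I, a comparison of counting error without a test.

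Complex III, the cytochrome bc1 complex, differed between the VAT libraries. Its 8 genes summed to 754 UMIs in spleen, 569 in VAT library 2 and 692 in VAT library 3. The ratio in VAT library 2 was 0.778 (0.697 to 0.869) and in VAT library 3 it was 0.959 (0.864 to 1.07). Below spleen in both were 4 of the 8 (50%), against 40.5% of all genes with 50 or more UMIs. Uqcrh, the hinge protein that contacts cytochrome c1 and the gene of the complex with the most UMIs, had 514.3 CPM in spleen, 365.04 in VAT library 2 and 477.4 in VAT library 3. Uqcrb, a ubiquinone-binding subunit, had 188.3, 143.9 and 171.3 CPM. The Uqcrh ratio in VAT library 2 was 0.710 (0.591 to 0.852) and in VAT library 3 it was 0.928 (0.783 to 1.10), so it followed the sum, while both Uqcrb intervals included 1. Uqcrc1, a core protein of the matrix side, had the lowest mean log2 ratio, with 137.7, 111.5 and 103.9 CPM, and Uqcr11 the highest, with 78.4, 80.9 and 94.8 CPM. Neither differed from spleen beyond counting error in either VAT library.

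Complex IV, cytochrome c oxidase, also gave different ratios in the VAT libraries. Its 18 genes summed to 2443 UMIs in spleen, 2045 in VAT library 2 and 2330 in VAT library 3, or 0.863 (0.814 to 0.916) and 0.997 (0.942 to 1.06) times the spleen share. Over the 3 libraries together, Cox4i1 and Cox8a had the most UMIs of the complex. Cox4i1, the ubiquitous form of the regulatory subunit 4, had 725.2 CPM in spleen, 674.3 in VAT library 2 and 750.8 in VAT library 3, and the spleen value lay between those of VAT. Cox8a, the ubiquitous form of the smallest subunit, had 552.6, 557.5 and 767.2 CPM, which was higher in VAT library 3 alone, at 1.39 times spleen (1.20 to 1.61). Cox6a1, the form of subunit 6a found outside heart and muscle, had the highest mean log2 ratio of the complex. It had 320.8 CPM in spleen, 384.8 in VAT library 2 and 415.5 in VAT library 3, with ratios of 1.20 (0.981 to 1.47) and 1.30 (1.06 to 1.58).

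Cox7a2l differed most within complex IV. It encodes a relative of subunit 7a that joins complexes III and IV into supercomplexes, and B6 mice are known to carry a short allele whose protein is unstable. Cox7a2l had 786.2 CPM in spleen, 352.5 in VAT library 2 and 420.9 in VAT library 3. It ranked first among the members by CPM in spleen, 10th in VAT library 2 and 7th in VAT library 3. The ratio in VAT library 2 was 0.448 (0.377 to 0.531) and in VAT library 3 it was 0.535 (0.455 to 0.629), so it missed the 2-fold size in library 3. The mean log2 ratio over the VAT libraries was -1.03 in all cells and -1.08 in cells with a Foxp3 UMI. Summed without Cox7a2l, a sum chosen after its value was seen, complex IV stood at 0.957 (0.898 to 1.02) and 1.10 (1.04 to 1.17) times the spleen share. Its relative Cox7a2, the subunit 7a form outside muscle, had 271.96, 196.01 and 282.4 CPM, lower in VAT library 2 only, at 0.721 (0.559 to 0.926). Among the remaining paralogs, Cox6b1 had 308.6, 323.7 and 280.6 CPM.

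Tissue-restricted forms of complex IV were at or near 0. Cox4i2, known from lung, Cox8b, known from muscle and brown fat, and Cox8c, known from testis, had no UMI in any library, and neither did Ndufa4l2, a relative of Ndufa4 induced by low oxygen. A count of 0 allows up to 5.23 CPM in spleen, 5.39 in VAT library 2 and 5.47 in VAT library 3, taking a floor of 3 counts per library. Cox6a2 and Cox7a1, the heart and muscle forms, and Cox6b2 and Cox7b2 had 1 UMI each over the 3 libraries. Nearly all UMIs of these subunits thus came from the ubiquitous paralog in spleen and VAT alike, within this depth.

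Complex V, the ATP synthase, was lower in both VAT libraries by a similar factor. Its 15 genes summed to 2753 UMIs in spleen, 2209 in VAT library 2 and 2170 in VAT library 3, or 0.828 (0.782 to 0.876) and 0.824 (0.778 to 0.872) times the spleen share. All 15 had 50 or more UMIs. Below spleen in both VAT libraries were 10 (66.7%), against 40.5% of all genes, and 1 (6.67%), Atp5d, was above, against 41.3%. The c ring, the rotor that protons turn, is encoded by Atp5g1, Atp5g2 and Atp5g3, which give the same mature protein. These genes were below spleen in both libraries and took 0.126%, 0.0944% and 0.0897% of UMIs, or 0.747 (0.666 to 0.837) and 0.709 (0.631 to 0.796) times. The catalytic F1 head (Atp5a1, Atp5b, Atp5c1, Atp5d and Atp5e) stood nearer to 1, at 0.908 (0.830 to 0.994) and 0.887 (0.809 to 0.972). This sum includes Atp5d, the only gene of the complex above spleen in both VAT libraries, and a sum without it was not taken. Atp5e of the same head was lower in both, at 0.689 (0.550 to 0.861) and 0.719 (0.575 to 0.897) times spleen.

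Within the c ring, Atp5g2 had 671.2 CPM in spleen, 490.9 in VAT library 2 and 373.6 in VAT library 3. Atp5g1 had 277.2, 170.8 and 207.7 CPM. Atp5g3 had 315.5 CPM in spleen, 282.3 in VAT library 2 and 315.2 in VAT library 3, with ratios of 0.895 (0.718 to 1.11) and 0.999 (0.806 to 1.24). The lower sum of the c ring therefore came from Atp5g2 and Atp5g1, while Atp5g3 did not differ beyond counting error. Atp5o, the OSCP subunit that links the stalk to the F1 head, had the lowest mean log2 ratio of complex V, with 160.4, 82.7 and 91.1 CPM and ratios of 0.516 (0.354 to 0.743) and 0.568 (0.394 to 0.810). Atp5d, the delta subunit of the central stalk, had the highest, with 392.2, 427.98 and 544.9 CPM and ratios of 1.09 (0.905 to 1.32) and 1.39 (1.16 to 1.66). The alpha subunit gene Atp5a1 had 430.6, 370.4 and 284.3 CPM and ratios of 0.860 (0.712 to 1.04) and 0.660 (0.537 to 0.810). The catalytic beta subunit gene Atp5b had ratios of 0.905 (0.729 to 1.12) and 0.766 (0.610 to 0.960). Both were lower in VAT library 3 beyond counting error and not in VAT library 2. Atp5s and Atp5sl, which match the name rule but encode no subunit, had 7, 2 and 5 UMIs and 20, 10 and 4 UMIs.

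**Figure D3:**
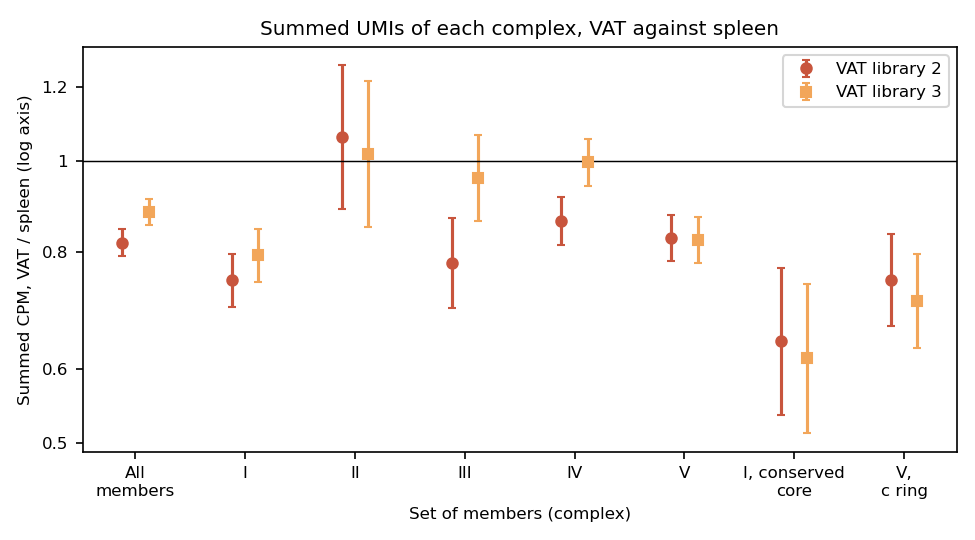
The vertical log axis is the ratio of summed CPM in each VAT library to that in spleen for all 84 members, each complex, the 7 core subunit genes of complex I and the 3 c ring genes of complex V, with 95% exact binomial intervals as bars. Complexes I and V lie below 1 in both VAT libraries, complex II is at 1.06 and 1.02, and complexes III and IV lie below 1 in VAT library 2 and near 1 in VAT library 3.

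The mix of complexes within the chain shifted little. Complex I gave 25.6% of the 8344 subunit UMIs in spleen (24.7% to 26.6%), 23.3% in VAT library 2 (22.3% to 24.4%) and 23% in VAT library 3 (22% to 24%). Complex IV gave 29.3% (28.3% to 30.3%), 30.8% (29.7% to 31.96%) and 32.98% (31.9% to 34.1%). Complex V gave 32.99%, 33.3% and 30.7%, complex III 9.04%, 8.58% and 9.80%, and complex II 3.04%, 3.94% and 3.50%. Complex I was thus a smaller part of the chain's mRNA in both VAT libraries, and these shares do not depend on the ribosomal content of the libraries. Across the 70 members, log2 CPM in spleen and VAT had Pearson correlations of 0.92 (library 2) and 0.90 (library 3), and the VAT libraries one of 0.95. These are across genes, which share the libraries and are not independent replicates.

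Counts per cell at equal depth describe the same UMIs in another way, and cells are not replicates of a tissue. Each cell was thinned to 800 UMIs, which left out no cell. The median cell then held 11 member UMIs in spleen (range 4 to 28), 9 in VAT library 2 (range 1 to 24) and 10 in VAT library 3 (range 1 to 27), so the distributions overlapped widely. The median number of complex I UMIs was 3 in spleen and 2 in each VAT library. Cells without a complex I UMI made up 8.27% of spleen cells, 14.5% in VAT library 2 and 15.3% in VAT library 3. Before thinning these shares were 2.4%, 3.64% and 4.14%, and the median cell held 20, 19 and 20 member UMIs. The variance of member UMIs over cells was 1.56, 1.68 and 1.69 times the mean, somewhat more than counting alone would give.

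The member share was also taken in subsets of cells. Cells above and at or below the median depth had 1.48% and 1.43% in spleen, 1.20% and 1.18% in VAT library 2, and 1.29% and 1.29% in VAT library 3. Klrg1 encodes an inhibitory receptor of highly differentiated Tregs. In spleen, the 10 cells with a Klrg1 UMI after thinning had 1.64% (1.37% to 1.94%) and those without 1.44% (1.40% to 1.49%), and these intervals overlap. In VAT library 2, cells with a Klrg1 UMI after thinning had 1.21% (1.16% to 1.26%) and those without 1.17% (1.09% to 1.25%), and in VAT library 3 these were 1.27% (1.22% to 1.32%) and 1.33% (1.24% to 1.43%). Cells with and without a Foxp3 UMI had 1.45% and 1.45% in spleen, 1.15% and 1.21% in VAT library 2, and 1.36% and 1.27% in VAT library 3. The order of these pairs was not the same in the VAT libraries. All VAT subsets were below the spleen value of 1.45% in cells with a Foxp3 UMI, which had an interval of 1.36% to 1.54%. In VAT library 3, the intervals of cells with a Foxp3 UMI (1.25% to 1.47%) and of cells without a Klrg1 UMI overlapped that spleen interval. In VAT library 2, the interval of cells with a Foxp3 UMI (1.06% to 1.23%) did not.

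**Figure D4:**
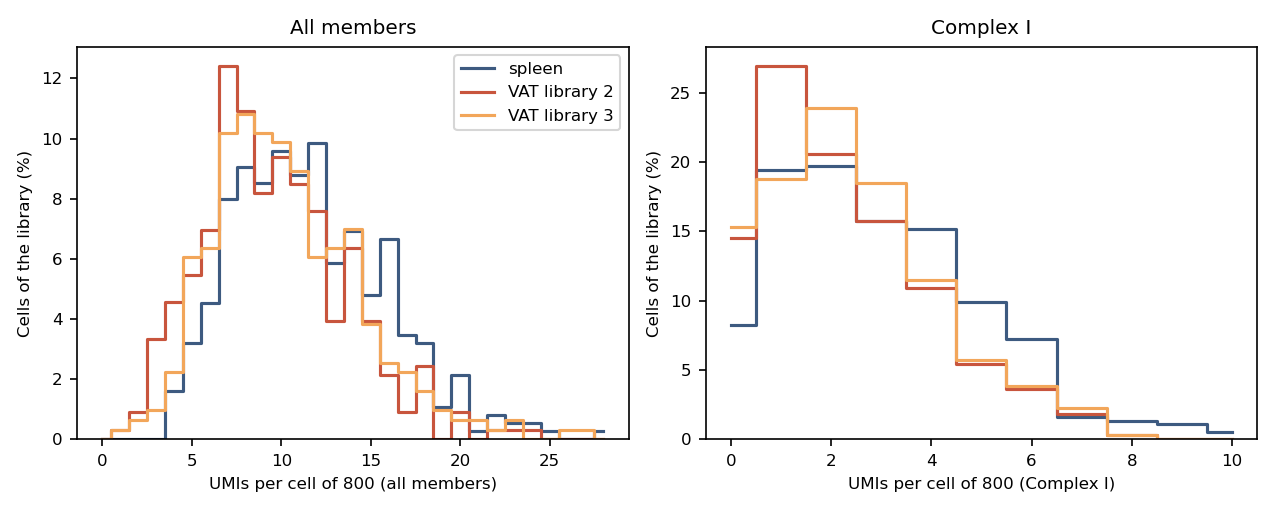
The horizontal axis is the number of UMIs of all members (left) or of complex I (right) per cell thinned to 800 UMIs, and the vertical axis the percentage of the library's cells, for spleen and the 2 VAT libraries. The spleen curve lies to the right of both VAT curves, with medians of 11, 9 and 10 on the left and 3, 2 and 2 on the right, and the curves overlap.

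Other mitochondrial gene lists gave context for the chain. Of all 4635 genes with 50 or more UMIs, 40.5% were below spleen in both VAT libraries, 41.3% above and 4.4% 2-fold lower. Among 6 chain genes outside the name rule, such as cytochrome c, 5 were below spleen in both VAT libraries, with median log2 ratios of -0.50 and -0.32. The lowest by mean log2 ratio was Ndufab1, the acyl carrier protein of complex I (-0.84), and the highest Atpif1, the inhibitor of ATP synthase hydrolysis (0.67). Of 43 assembly factors, 17 had 50 or more UMIs. Of these, 10 were below spleen in both and 3 above, with medians of -0.24 and -0.29, from -1.05 for Acad9, a complex I assembly factor, to 1.01 for Cox16, a complex IV assembly factor. Mitochondrial ribosomal proteins, which translate the mitochondrially encoded subunits, had medians of -0.25 and -0.18 over 44 genes, and 3 of these were 2-fold lower in both. The 15 protein import genes had medians of -0.33 and -0.11. The median was thus below 0 in both VAT libraries for all of these lists.

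Lists for neighbouring functions varied. The 12 TCA cycle genes with 50 or more UMIs had medians of -0.03 and 0.32. Of these 12, 5 were below spleen in both VAT libraries and 6 above, against 40.5% and 41.3% of all genes. Their mean log2 ratios ran from -0.79 for Pdhb, a subunit of pyruvate dehydrogenase, to 0.77 for Sucla2, a subunit of succinyl-CoA synthetase. The summed share was taken over all 17 TCA cycle genes listed, with no minimum. It was lower in both VAT libraries, at 0.868 (0.799 to 0.943) and 0.889 (0.818 to 0.965) times spleen, beside 0.819 and 0.883 for the chain. The 7 carrier and uncoupler genes had medians of 0.01 and 0.14, from -0.34 for Slc25a5, an ADP/ATP carrier, to 0.52 for Vdac1, a pore of the outer membrane, and their summed share was 0.856 (0.781 to 0.937) and 1.02 (0.933 to 1.11) times spleen. Of 12 regulators of mitochondrial biogenesis, 3 had 50 or more UMIs. Their medians were -0.04 and -0.22, and Tfam, the transcription factor of mitochondrial DNA, was 2-fold lower in both VAT libraries (mean log2 ratio -1.11). No test compared these lists with the chain.

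In 16 of the 83 annotated members another gene overlaps the 3′ end, where the UMIs lie, so their counts may hold reads of the neighbour. This share was not taken over all genes. The neighbour is on the same strand for Cox4i1, Ndufa13 and Ndufb8, and on the opposite strand for Uqcrh, Ndufa2, Ndufa3 and Cox6c. Atp5o is also counted, but the entry used for it overlaps another entry of the same name, so its 3′ end is uncertain. Ndufa4, Ndufa9, Cox7a2l, Cox6a1 and Atp5h are not among the 16. Several members are known to have processed pseudogenes, and the handling of reads that match more than 1 place is not given in the sources used here. Over the 70 members, Spearman's rho with median transcript length was 0.02 in VAT library 2 and -0.24 in VAT library 3, and with total UMIs 0.17 and 0.21. The 7 members with 50 to 100 UMIs had median log2 ratios of -0.64 and -0.92, against 0.04 and -0.07 for all genes of that depth. The 31 members with 100 to 200 UMIs were at -0.27 and -0.23, and the 19 with 200 to 500 UMIs at -0.39 and -0.27. The 13 with 500 to 2000 UMIs were at -0.16 and -0.06, against 0.23 and 0.16 for all genes of that depth.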

How the data were processed

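Tregs sorted from spleen and epididymal VAT were profiled by inDrops and sequenced on a NextSeq500, per the labels' protocols. The authors deposited raw UMI counts of each gene symbol in each cell. The submitters' processing notes name TopHat2, SAMtools and build mm10, without versions. The annotation, cell filter and doublet removal are not given in the sources used here, and no doublet caller was run. Each sample is 1 cell. Spleen cells were grouped by their source name, and VAT cells by their titles, whose numbers also name the VAT libraries. In comparisons between tissues, each library was treated as 1 unit.

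UMIs were summed per library and divided by its total (CPM). log2 ratios add 0.5 to each count. Ratios have exact conditional binomial 95% intervals. Sizes were counted for genes with 50 or more UMIs over the 3 libraries. No count model was fitted, because the spleen is 1 library. Cells were thinned to 800 UMIs without replacement. The NRF1 letters were shortened by 1 base after a longer form, which gave fewer matches in members and in all windows, had been searched. The fold rule and the intervals were tested on simulated data. Members named with values were the 2 most abundant and the highest and lowest by mean log2 ratio of each complex, those past 2-fold, and paralog sets. Ndufs1, Ndufs3, Ndufs8, Ndufv1, Ndufa1, Ndufa5, Sdhc, Atp5a1, Atp5b, Atp5e and Atp5h were added after their values were seen. Some items are not reported here. The genes, lists and rules were chosen with earlier results of these data known. Python 3.11.15, pandas 2.3.3, numpy 2.4.6 and scipy 1.17.1 were used. Alternatives varied the totals, filters, cells and pseudocount.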

Additional observations from a re-analysis of the deposited data

How the results depend on the processing

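The mean over the VAT libraries of the members' median log2 ratio was -0.30, and that of their summed share -0.23; both kept their sign in every alternative run, with ranges of -0.52 to -0.17 and -0.45 to -0.18. The median moved to -0.52, and the summed share to -0.45, without ribosomal protein genes in the totals. The median was -0.23 with a minimum of 100 UMIs, -0.21 in cells with a Foxp3 UMI, -0.17 without cells holding a non-Treg marker, and -0.22 after thinning. Of 2 members 2-fold lower in both VAT libraries, the count went to 4 without ribosomal totals (with Cox7a2l and Atp5o), 4 at 20 UMIs, 0 at 100 UMIs, 0 in cells with a Foxp3 UMI, and 9 at 1.5-fold. In cells with a Foxp3 UMI, 1 member, Ndufv3, was 2-fold higher. Without cells holding a non-Treg marker the count stayed at 2, but the genes were Ndufv1 and Ndufa5, since Ndufa4 and Ndufa9 had under 50 UMIs there; after thinning they were Ndufa4 and Cox7a2l. Leaving out a VAT library gave medians of -0.35 to -0.25, summed shares of -0.29 to -0.18, and 3 to 5 members 2-fold lower. With the main settings, 4.4% of all genes were 2-fold lower in both VAT libraries and 12.8% were 1.5-fold lower. The shares of all genes past 2-fold were not taken under the other alternatives, so the member counts there have no background. The medians of complexes I and V stayed below 0 in every alternative run, at -0.67 to -0.27 and -0.54 to -0.27, while those of complexes II, III and IV crossed 0. Leaving mitochondrially encoded genes out of the totals was not run, because the table used here lists no such rows. Counting Ndufa4 with complex IV was chosen after seeing the data. No paired analysis was possible because there is 1 spleen library; its titles and those of VAT library 2 share the number 2, but no label says that the number marks a pair.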
